A study of Caenorhabditis elegans with 2 samples.

Results

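The genes of the large ribosomal subunit proteins were taken by name, as every Ensembl protein-coding gene of the WBcel235 genome whose name begins with rpl-, and these were 47 of 19973 protein-coding genes on the 6 nuclear chromosomes. They were examined in a chromatin immunoprecipitation sequencing (ChIP-seq) experiment on SEA-2, a zinc finger protein known from the sex determination of Caenorhabditis elegans. The 2 biological replicates, which form 1 group, were whole young adults at 64 hours, hatched from bleached embryos and held starved as L1 larvae before growth. The strain, OP586, carries the transgene wgIs586, which holds sea-2 fused to TY1, EGFP and 3xFLAG tags and an unc-119 rescue gene, in an unc-119 (tm4063) mutant. The description names an antibody against GFP, whereas the antibody label reads sea-2. The transgene adds copies of sea-2 to those the animals already have, and whole animals do not tell which cells a peak came from. No second group and no input were analysed here, so the counts of selected genes stand beside those of all protein-coding genes.

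The large subunit of the ribosome carries the peptidyl transferase centre, where amino acids are joined, and the exit tunnel through which the new chain leaves. Its proteins bind ribosomal RNA and are made in step with it, since the subunit is assembled in the nucleolus before it reaches the cytoplasm. In C. elegans, as in other animals, several ribosomal protein genes also hold small nucleolar RNA (snoRNA) genes in their introns. In RefSeq, 45 of the 47 genes had a large subunit protein as their product. The other two were rpl-24.2, annotated as a putative ribosome biogenesis protein RLP24, and rpl-42, annotated as a NAM-associated domain-containing protein.

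A gene was called selected when the authors' optimal list of the pooled replicates had a peak summit in its promoter window, which began 1000 bp before the Ensembl start and ended 200 bp after it. That list holds 453 peaks at an irreproducible discovery rate (IDR, low where 2 lists rank the same peak alike) of 0.01 or less. Ranks are among the 82563 candidates of the longer pooled list, which holds every optimal peak, by the deposited signal, the value of the authors' peak caller, whose scale is not given in the sources used here. Selected rpl genes numbered 7 of 47 (14.9%, exact 95% Clopper-Pearson interval 6.20 to 28.3%), against 1.13% of all protein-coding genes. They were rpl-3, rpl-15, rpl-35, rpl-20, rpl-7A, rpl-12 and rpl-24.2. No test was run on this difference, because the genes were chosen with earlier results of these data known. The interval covers counting error only.

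The sequences around 6 of the 7 summits are shown because the strongest rpl signals lie on them. They come from the RefSeq WBcel235 (ce11) genome and run 5′ to 3′ on the strand of the rpl gene. Each is 151 bases centred on the summit, except that those of rpl-7A and rpl-12 end at the base before the annotated start and reach back to the far end of the peak. The rpl-12 stretch therefore lies beside its summit. Capitals mark, on either strand, 4 short words picked by eye after these summit windows had been searched, and the longest run of bases shared by a pair of the windows. The words are GCGCAC and, of greater length, AACACGC and also AAGTGTA as well as TGGCCTAA, and the shared run is AAGTGCGCTCCAC.
rpl-3 (chrIII:3867497-3867647, plus strand): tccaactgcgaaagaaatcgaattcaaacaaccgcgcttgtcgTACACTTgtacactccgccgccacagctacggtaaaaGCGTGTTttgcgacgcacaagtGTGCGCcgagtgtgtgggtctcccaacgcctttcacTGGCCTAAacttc
rpl-15 (chrIV:654852-655002, minus strand): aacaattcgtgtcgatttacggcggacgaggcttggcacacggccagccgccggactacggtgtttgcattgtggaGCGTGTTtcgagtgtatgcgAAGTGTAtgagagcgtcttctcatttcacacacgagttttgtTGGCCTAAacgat
rpl-35 (chrIII:7854605-7854755, plus strand): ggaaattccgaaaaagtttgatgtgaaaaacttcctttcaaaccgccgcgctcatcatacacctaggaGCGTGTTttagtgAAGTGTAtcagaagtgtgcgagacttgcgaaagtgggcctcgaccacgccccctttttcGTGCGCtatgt
rpl-20 (chrIV:4749996-4750146, minus strand): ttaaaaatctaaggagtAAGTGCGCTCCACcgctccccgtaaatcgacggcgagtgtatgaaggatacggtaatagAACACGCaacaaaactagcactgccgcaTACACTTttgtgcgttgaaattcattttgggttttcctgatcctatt
rpl-7A (chrIV:4390591-4390803, minus strand): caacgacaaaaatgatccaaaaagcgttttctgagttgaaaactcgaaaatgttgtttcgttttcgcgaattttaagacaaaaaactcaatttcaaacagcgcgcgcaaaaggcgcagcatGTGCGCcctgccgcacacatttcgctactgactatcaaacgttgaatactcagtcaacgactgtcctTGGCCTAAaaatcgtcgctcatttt
rpl-12 (chrIV:13240652-13240778, minus strand): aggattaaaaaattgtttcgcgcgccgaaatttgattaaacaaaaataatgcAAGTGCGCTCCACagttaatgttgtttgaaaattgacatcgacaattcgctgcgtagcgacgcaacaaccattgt

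The 2 strongest rpl peaks lay upstream of rpl-3 and rpl-15. The gene rpl-3 (WBGene00004414, III, 3867854 to 3869587) encodes uL3, which in yeast reaches towards the peptidyl transferase centre. Its peak (3867499 to 3867648) had a pooled signal of 253, rank 20 among all candidates, with the summit 282 bp upstream of the start. In the replicates' own ranked lists the overlapping candidates had signals of 152 in replicate 1 and 110 in replicate 2, both above 99.9% of the candidates of their list (percentiles 99.97 and 99.94). The gene rpl-15 (WBGene00004427, IV, 653480 to 654576) encodes eL15, a protein of archaeal and eukaryotic large subunits. Its peak (654846 to 654983) had a pooled signal of 231, rank 27, with 130 in replicate 1 and 100.4 in replicate 2. The rpl-15 summit lay 351 bp upstream of its start and also in the promoter window of K11H12.8. Both peaks were in the thresholded lists of both replicates, and they were the only ones of the 7 with a q value under 0.05 (0.0182 each). The other 5 had q values from 0.0530 to 0.0826.

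Next came a gene of the tunnel exit and a pair of peripheral proteins. The gene rpl-35 (WBGene00004449, III, 7855134 to 7855646) encodes uL29, which lies at the exit of the tunnel. Its peak had a pooled signal of 173 and lay farthest upstream, at 454 bp, with 118 in replicate 1 and 57.5 in replicate 2. The gene rpl-20 (WBGene00004432, IV, 4749123 to 4749778) encodes eL20. Its peak had a pooled signal of 157, with 84.5 in replicate 1 and 68.0 in replicate 2. The summit lay 293 bp upstream of rpl-20 and 169 bp from the start of Y17G9B.5, so this is the one selected rpl gene that is not the nearest. The gene rpl-7A (WBGene00004419, IV, 4389143 to 4390590) encodes eL8, a relative of archaeal L7Ae. Its peak had a pooled signal of 148, with 75.3 in replicate 1 and 70.1 in replicate 2. That summit, 62 bp upstream, also lay in the promoter window of set-21 and within 500 bp of the snoRNA gene Y24D9A.9. All 3 peaks were in both replicates' thresholded lists, although replicate 1 gave 2.05 times the signal of replicate 2 at rpl-35 and 1.08 times at rpl-7A.

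The last 2 selected genes were not in both replicates' thresholded lists. The gene rpl-12 (WBGene00004424, IV, 13239587 to 13240651) encodes uL11, found at the base of the stalk that contacts translation factors. Its pooled signal was 115, with 87.7 in replicate 1 and 31.2 in replicate 2, a ratio of 2.82. The rpl-12 summit was in the thresholded list of replicate 1 and not in that of replicate 2, where its candidate stood at percentile 95.6. It lay 24 bp downstream of the start, in an exon, and its window is shared with lin-54. The gene rpl-24.2 (WBGene00004437, I, 9669415 to 9670098) is named like a ribosomal protein gene, but its yeast relative Rlp24 acts in assembly and gives way to eL24. Its pooled signal was 77.7, with 45.7 in replicate 1 and 32.8 in replicate 2, and neither replicate's thresholded list had it. Its summit lay 145 bp upstream, in an intron of C03D6.1 on the opposite strand.

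**Figure D1:**
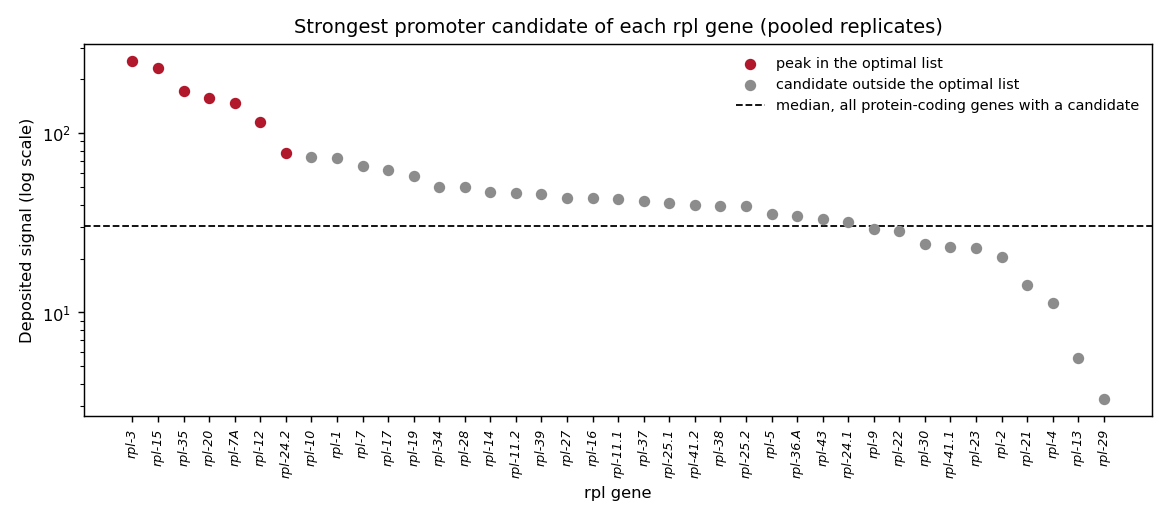
Deposited pooled signal (log scale) of the strongest promoter candidate of the 39 rpl genes that have one, in order of signal, with the median of all protein-coding genes that have a candidate as a dashed line (30.4). The 7 genes with a peak in the optimal list run from 77.7 to 253, above the 32 other rpl genes, whose highest value is 73.6.

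Support from single replicates was counted separately. The conservative list thresholds the pooled ranked list whose compared intervals recurred in the replicates' own ranked lists (56.9% for replicate 1 and 57.6% for replicate 2). It selected 6 of 47 rpl genes (12.8%, 4.83 to 25.7%), against 1.07% of all genes, and lacked rpl-24.2. Replicate 1's own thresholded list had a summit in the window of 6 rpl genes, against 0.476% of all genes. Replicate 2's list had one in 5 (10.6%, 3.55 to 23.1%), against 0.295%. The 5 genes with summits from both replicates' lists were rpl-3, rpl-15, rpl-35, rpl-20 and rpl-7A, and 0.215% of all genes had such support. Read from single replicates, the share among rpl genes thus stayed above 10%.

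In all 7 selected genes the replicate 1 signal was the higher one. It was also higher in 15 of the 20 unselected rpl genes that had an overlapping candidate in both replicates. The median signal of all ranked candidates was 19.0 in replicate 1 and 16.3 in replicate 2, and whether the scales of the lists can be compared is not known. Over these 27 rpl genes the signals of the replicates had a rank correlation (Spearman's rho) of 0.579, and Pearson's r of their log10 values was 0.742, given as a description across genes of the same 2 libraries. The 27 include the 7 selected genes, which have the highest pooled signals of the rpl genes. In the ranked list behind the optimal list, 0% of the first compared intervals were found in replicate 1's ranked list. Which lists that IDR compared is thus not known, and a low value there does not show that the replicates ranked a peak alike. Both correlations rest in part on the selected genes, and none is given for the 20 unselected genes alone. By rank, the selected genes stood at percentiles 98.7 to 99.97 of replicate 1 and 95.6 to 99.9 of replicate 2. Unselected rpl genes had replicate 1 signals of 10.5 to 46.1 (24 of 32 genes) and replicate 2 signals of 8.34 to 38.0 (27 of 32 genes). Among the unselected, 0 of 32 overlapped a thresholded peak of either replicate.

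**Figure D2:**
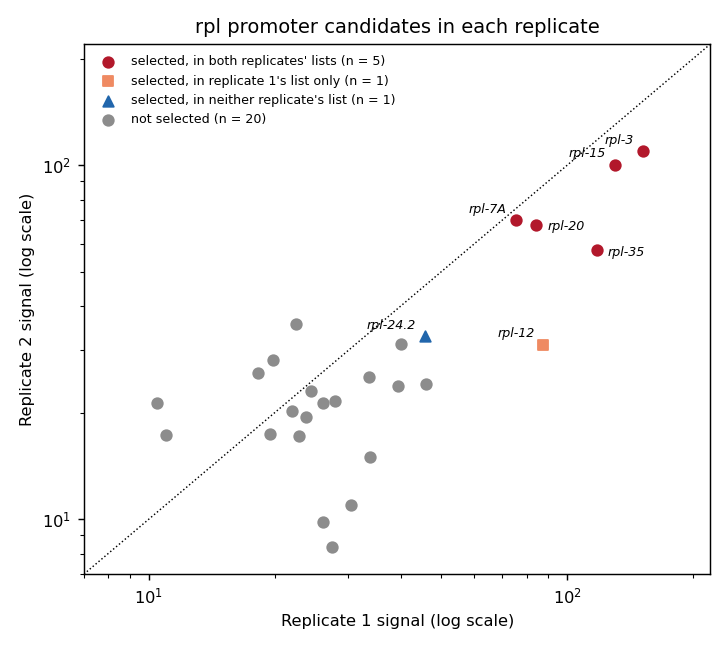
Signal in replicate 1 (x axis) and replicate 2 (y axis), both on log scales, of the replicate candidates that overlap the strongest pooled candidate of 27 rpl genes, with a dotted line of equal signal. The 5 genes in both replicates' thresholded lists lie at the upper right, rpl-12 (87.7 and 31.2) lies well below the line, and rpl-24.2 (45.7 and 32.8) lies beside unselected genes.

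The IDR threshold fell between rpl-24.2 and rpl-10, whose signals were close. For rpl-24.2 the IDR was 0.00647 in the ranked list behind the optimal list and 0.0106 in the one behind the conservative list. For rpl-10 (II), which encodes uL16, a protein added late in assembly in yeast, the pooled signal was 73.6 and the IDR 0.0142 and 0.0213. Its replicate signals were 40.1 and 31.3, and its summit lay 114 bp downstream of the start. Next below was rpl-1, which encodes uL1 of the mobile stalk near the tRNA exit, with 72.6 and an IDR of 0.0305. That summit lay 980 bp upstream and nearer to the start of Y71F9AL.9, and in a window of 500 bp upstream the strongest rpl-1 candidate had 30.1. The other unselected genes with high signal were rpl-7 (65.8), rpl-17 (62.6), rpl-19 (57.8), rpl-34 (50.4), rpl-28 (50.2), rpl-14 (47.0), rpl-11.2 (46.3) and rpl-39 (46.0). At rpl-19 replicate 2 had a candidate with a signal of 38.0 and replicate 1 had none that overlapped.

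Candidates were also counted without regard to the threshold. A pooled candidate summit lay in the window of 39 of 47 rpl genes (83.0%, 69.2 to 92.4%), against 61.9% of all genes, and among all genes with a candidate 1.83% were selected. The strongest candidate was in the top 1% of candidates by signal at 9 rpl genes (19.1%), against 1.73% of all genes, and in the top 10% at 17 (36.2%), against 10.2%. The 7 selected genes are in both counts. Among the 40 unselected rpl genes, 2 (5.00%) were in the top 1%, against 0.643% of all 19747 unselected genes, and 10 (25%) were in the top 10%, against 9.23%. Its median signal was 42.9 (quartiles 30.7 and 64.2, n = 39) over rpl genes and 30.4 (22.5 and 39.9, n = 12356) over all genes. Without the selected genes the median was 39.6 (n = 32) over rpl genes and 30.1 (n = 12130) over all genes, and 22 of those 32 rpl genes were at or above 30.1. The strongest candidate is taken from all those in a window, and rpl windows held more of them. The mean per window was 1.70 at rpl genes and 1.725 at the unselected ones, against 0.967 over all genes. How far this bears on the medians and top shares was not tested.

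Some rpl genes had a weak candidate or none in the window. The 8 without a pooled candidate were rpl-6, rpl-18, rpl-26, rpl-31, rpl-32, rpl-33, rpl-36 and rpl-42 (17.0%, against 38.1% of all genes). For 6 of them a replicate's own ranked list had a candidate. Replicate 2 had one at rpl-26 (signal 21.9), rpl-31 (10.6), rpl-32 (17.3), rpl-33 (16.7) and rpl-36 (7.48), and replicate 1 had one at rpl-42 (14.6). At rpl-6 and rpl-18 neither replicate had one. The product of rpl-26, uL24, lies near the tunnel exit like uL29. The lists hold only candidates that the authors' peak caller kept, so this does not show that SEA-2 was absent. The lowest signals were 3.29 at rpl-29 and 5.59 at rpl-13, and both depend on the edge of the window. At each, the candidate overlapped a stronger one whose summit lay just outside, with a signal of 51.2 at 1042 bp upstream of rpl-29 and 44.7 at 1100 bp upstream of rpl-13.

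Genes for the same protein or with like names did not share their calls in every pair. The pair for uL5, which binds 5S ribosomal RNA, had 42.9 at rpl-11.1 and 46.3 at rpl-11.2, both unselected. The pair for uL23, at the tunnel exit, had 40.9 at rpl-25.1 and 39.4 at rpl-25.2. The pair for the small protein L41 had 23.1 at rpl-41.1 and 39.7 at rpl-41.2. In contrast, rpl-24.1, which encodes eL24 itself, had 31.9 and was unselected, against 77.7 at rpl-24.2. The genes rpl-7 and rpl-7A, which encode the unrelated proteins uL30 and eL8, had 65.8 and 148.

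Among the 7 selected genes the summit was farthest upstream at rpl-35 (454 bp) and lay past the start at rpl-12 (24 bp), with a median of 282 bp upstream. The median was 317 bp over the strongest candidates of 39 rpl genes and 392 bp over those of all genes. For all genes with an optimal peak it was 305.5 bp, near that of the selected rpl genes. The 47 windows held 80 candidates in all, 7 in the optimal list and 73 outside it. The rpl-12 summit was the one optimal summit inside an rpl gene body.

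**Figure D3:**
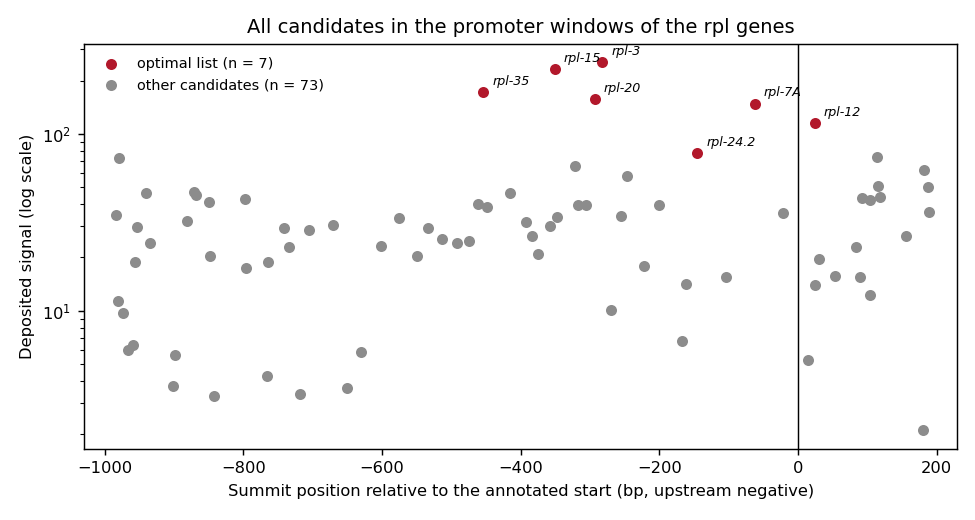
Position of every candidate summit in the promoter windows of the rpl genes (x axis, bp from the annotated start, upstream negative) and its deposited signal (y axis, log scale). The 7 optimal peaks, between rpl-35 (454 bp upstream) and rpl-12 (24 bp downstream), lie above the 73 other candidates.

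The surroundings of selected and unselected rpl genes were set side by side, with no test. Divergent genes, small RNA genes and nearest starts were not counted over all protein-coding genes. Whether these counts are unusual is thus not known. A divergent gene within 1000 bp upstream was found at 4 of 7 selected and 24 of 40 unselected rpl genes. Small RNA genes lay inside 2 of 7 selected genes (2 snoRNA genes each in rpl-15 and rpl-7A) and inside 6 of 40 unselected ones, among them rpl-6 with no candidate. The own start was the nearest protein-coding start at 6 of 7 selected genes and 20 of the 32 unselected ones with a pooled candidate. By chromosome, selected rpl genes numbered 4 of 7 on IV, 2 of 9 on III, 1 of 15 on I, 0 of 9 on II, 0 of 5 on V and 0 of 2 on X. The share of all genes selected ran from 0.806% on X to 1.70% on III, with 1.10% on IV. The bases up to 100 bp from the summit had a GC content of 43.9% ± 3.50 (SD, n = 7) in selected rpl peaks and 44.4% ± 7.47 (SD, n = 32) in the other strongest rpl candidates. It was 49.1% ± 7.22 (SD, n = 453) over all optimal peaks and 40.1% ± 7.11 (SD, n = 82563) over all candidates.

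A list of 5 motifs, drawn up with earlier results of these data known, was read in the promoters first. In promoters of 300 bases (250 before to 50 after the start), both strands read, GAGAGA was in 27.7% of rpl promoters against 21.8% of all, CGCGCA in 8.51% against 6.08% and CTGCGT in 12.8% against 8.23%. The run TTTTTTT was in 44.7% against 52.3% and TATAAA in 25.5% against 37.9%. Within 100 bp of the 7 selected summits these motifs had 2, 1, 1, 2 and 0 windows, in the same order. Over all optimal peaks, which include these 7, the shares of such windows were 27.4, 18.1, 18.5, 13.5 and 10.2%. Over all candidates they were 11.7, 3.996, 5.34, 26.9 and 14.4%. None of the 5 was in more than 2 of the 7. With only 7 windows, these counts cannot show whether the selected rpl peaks differ from those shares, and no test was run.

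The words in capitals in the printed sequences came from a later search and carry no test. All words of 6 to 9 bases, both strands pooled, were counted in the 7 summit windows. There were 4482 distinct ones, of which 159 were in 3 or more windows, 46 in 4 or more, 6 in 6 and 0 in all 7. The 12 in most windows at each length were read, 48 in all, and 4 were kept by eye. Those left out include AAATCG, also in 6 of 7 windows but in 20.7% of all candidates, and ACACTCG, in 4 of 7 and 1.21%. GTGTATGA (0.371%) and CGCTCCAC (0.495%) were left out too. Each was in 3 of 7 windows, like the kept TGGCCTAA (0.765%), which was thus not kept for its count or rarity. A search of that many words over 7 windows returns shared ones by itself, so their counts there describe the sequences shown and no more.

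GCGCAC was in 6 of 7 selected windows (all but that of rpl-15), in 3 of 32 windows of other rpl candidates, in 13.9% of the 446 other optimal peaks and in 3.61% of all candidates. AACACGC and AAGTGTA occurred together at rpl-3, rpl-15, rpl-35 and rpl-20, and AACACGC was in 0 and AAGTGTA in 1 of the 32 other rpl windows. AACACGC was in 4.04% of the 446 other optimal peaks and in 1.32% of all candidates. AAGTGTA was in 1.57% of those peaks and in 2.65% of all candidates. Over whole promoter windows AAGTGTA was in 8 rpl genes (17.0%), against 16.9% of all genes, and AACACGC in 8 (17.0%), against 7.38%. For each of these words 4 of the 8 were selected genes, whose summit windows had been searched. The other 4 were among the 40 unselected rpl genes, so the rpl shares rest in part on the search. The longest run shared by a pair of windows, AAGTGCGCTCCAC, was at rpl-20 and rpl-12 and holds GTGCGC, the reverse complement of the first word. It was in 0 of the other rpl windows and in 0.0266% of all candidates.

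TGGCCTAA had a different spread, since most of its rpl matches were at genes outside the search. It was near the selected summits of rpl-3, rpl-15 and rpl-7A, and in the promoter window of rpl-35. That is 3 of 7 selected summit windows, against 2 of 32 windows of other rpl candidates, 1.12% of the 446 other optimal peaks and 0.765% of all candidates. Over whole promoter windows it was in 13 of 47 rpl genes (27.7%), against 2.78% of all protein-coding genes. Of the 13, 4 were selected genes, whose summit windows had been searched, so this share rests in part on the search. The other 9 were among the 40 unselected rpl genes. The 13 matches of TGGCCTAA lay 25 to 364 bp upstream of the rpl starts, 11 on the strand of the gene and 2 on the other. Small subunit (rps-) windows held it in 5 of 31 (16.1%). At rpl-26 it was present without a pooled candidate, where replicate 2 alone had one with a signal of 21.9. These are matches of letters, not sites, and no factor was assigned to them.

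Among the related groups the small subunit genes had the share closest to that of the rpl genes. Of 31 rps- genes 4 were selected (12.9%), at rps-26 (144), rps-1 (116), rps-24 (116) and rps-19 (85.0). Support differed, since 0 of these 4 were in both replicates' thresholded lists, against 5 of the 7 rpl genes. At rps-26 the replicate signals were 102 and 42.5, and the summit lay nearer to tmem-107. The rps-19 summit lay nearer to hsr-9, and neither the conservative list nor either replicate's thresholded list had one for rps-19. The stalk genes, whose proteins recruit translation factors beside uL11, were selected in 0 of 3, and the ubiquitin fusion genes ubq-2 (36.3) and ubl-1 (27.5) were unselected. Mitochondrial ribosome genes were selected in 1 of 41 for the large subunit (mrpl-23, 117) and 2 of 29 for the small one (mrps-12, 77.9, and mrps-35, 75.5). Elongation factor genes were selected in 0 of 6, although the highest signal among them, 79.3, was above that of rpl-24.2. RNA polymerase I genes gave 0 of 4, and nucleolar factor genes 2 of 8 (pro-1, 110, and fib-1, 81.3). No difference between these groups was tested.

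**Figure D4:**
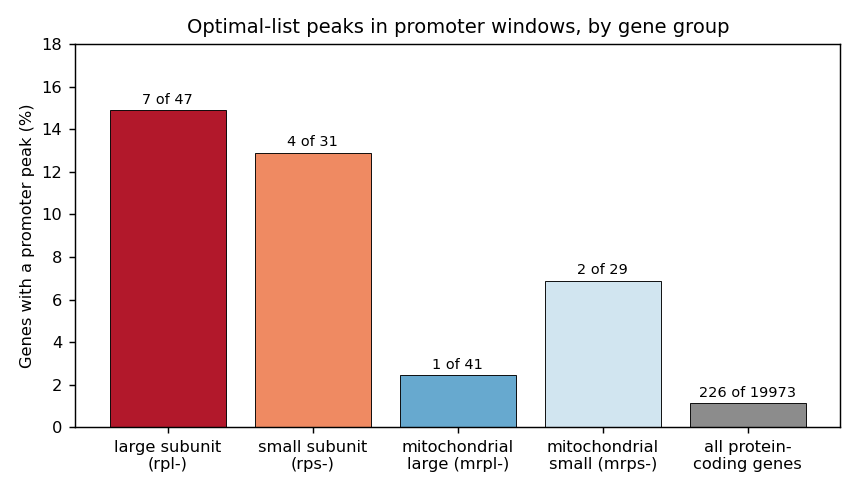
Share of genes (y axis, percent) with an optimal-list summit in the promoter window, for cytosolic and mitochondrial ribosomal protein genes and, at the right, all protein-coding genes. The bars are 7 of 47 rpl-, 4 of 31 rps-, 1 of 41 mrpl- and 2 of 29 mrps- genes, against 226 of 19973.

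The name rule and the protein family differ a little. RefSeq gives a large subunit product to 4 genes without an rpl- name in Ensembl, Y37E3.8 (signal 38.5), rla-0 (5.13), F28A10.13 (31.7) and T08B6.1 (21.9), and 0 of them were selected. With rpl-24.2 and rpl-42 left out, 6 of 45 rpl genes were selected (13.3%), and with these 4 genes added, 6 of 49 (12.2%). With 1 group, what SEA-2 adds at these promoters over another precipitation was not tested, and gene expression was not analysed here.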

How the data were processed

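ChIP-seq peak lists of 2 biological replicates were used. Per the file headers and labels, the authors deposited 8 IDR peak lists on ce11, the WBcel235 sequence: ranked and thresholded lists per replicate and for the pooled replicates. The deposited signal is the authors' peak caller value. The deposited −log10 columns hold q values and IDR. The aligner, peak caller and read depth were not given in the sources used here, so depth is unknown. The optimal list matched one pooled ranked list and the conservative list the other, so a candidate has 2 IDR values.

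Summits were assigned to Ensembl release 115 gene starts. Candidates of a replicate were matched by an overlap of 1 bp. Percentiles give the share of candidates with lower signal. Intervals are exact 95% Clopper-Pearson intervals. Only the finding of summits and peaks in promoter windows was tested on simulated data. Python 3.11.15, numpy 2.4.6, pandas 2.3.3, scipy 1.17.1 and matplotlib 3.10.9 were used. The members, gene lists, 5 motifs and alternatives were chosen with earlier results of these data known, and the words marked in capitals by a search of the 7 selected summit windows. Genes named were the selected rpl genes, the 10 strongest unselected ones, those without a pooled candidate, like-named pairs, nearer neighbours and selected members of related groups. Genes named outside this rule, such as rpl-29 and rpl-13, were chosen after their values were seen. Alternatives were single replicates, the conservative list, stronger peaks, other windows, starts and assignments.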

Additional observations from a re-analysis of the deposited data

How the results depend on the processing

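The number of selected rpl genes stayed between 5 and 7 of 47 under every alternative run, with no gene gained. It was 5 without replicate 1 and 6 without replicate 2, with the conservative list, with the optimal peaks of median signal or more, with a window of 500 bp upstream (which lost rpl-12) and with the nearest start only (which lost rpl-20). RefSeq starts, added after the data were seen, gave 7. The share of all protein-coding genes moved more. It was 0.295% without replicate 1 and 0.476% without replicate 2, 0.621% at or above the median signal, 0.726% in the narrow window, 1.61% from 2000 bp upstream to 500 bp downstream, 1.31% with any transcript start and 0.836% with the nearest start only. Shorter lists and narrower windows hold fewer summits by construction. The rpl median signal was 38.7 in the narrow window. The rpl median percentile was 88.0 in the pooled list, 78.9 without replicate 1 and 75.0 without replicate 2, and the cause was not tested. In the narrow window rpl-12, rpl-10 and rpl-28 had no candidate, and 5 named genes kept a weaker one, with 30.1 at rpl-1, 38.7 at rpl-17, 31.6 at rpl-34, 33.8 at rpl-14 and 24.8 at rpl-39. The other 43 signals of named genes are the same candidates read again. No paired analysis was possible because the samples form 1 group. Depth is unknown, and 7 genes are few, so the intervals of their shares are wide.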
